A study of Mus musculus with 14 samples.

Results

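The interferon-stimulated genes are a set of 38 mouse genes whose transcription is raised by interferons. They were examined in RNA-seq libraries of the embryonic hippocampus from 2 mouse models of Down syndrome. The genes were listed by name as known targets of interferon, and 37 of the 38 had a row among the 59796 rows of the gene table. Ifit1 had none. The first model, 189N3, carries an extra copy of Dyrk1a, a protein kinase gene, on a bacterial artificial chromosome that holds the whole gene, and was compared over 3 libraries with 3 of wild-type littermates. The second, Dp(16)1Yey/+, carries an extra copy of the part of mouse chromosome 16 that is syntenic to human chromosome 21, and was compared over 4 libraries with 4 of wild-type littermates. All hippocampi came from E16-E18 embryos of known genotype, and no treatment is named. Each library was taken as 1 sample, and the labels do not say whether a library pools embryos, so p-values measure the spread between libraries.

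Interferons are cytokines that cells release on sensing viral nucleic acid. Type I interferon binds the IFNAR1 and IFNAR2 receptor chains, whose kinases JAK1 and TYK2 phosphorylate STAT2. It joins IRF9 in ISGF3, a factor that binds the interferon-stimulated response element (ISRE) in the promoters of its target genes. Type II interferon acts through IFNGR1 and IFNGR2 and leads to binding at the gamma-activated sequence (GAS). Genes for both type I receptor chains, IFNGR2 and IL10RB lie in the triplicated part of chromosome 16, and so do Mx1 and Mx2 among the induced genes. In brain, microglia, endothelial cells, astrocytes and neurons can all respond to interferon, and low expression without infection is usual.

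The response element gives the genes a feature that was not used to list them. Promoters of 300 bases, 250 before and 50 after the RefSeq start (GRCm38.p6, the build called mm10), were found for 31 of the 38 genes. There were no entries for Dhx58, Mx1, Mx2, Usp18, Parp14, Ifi27 and Rtp4. An ISRE core, taken as GAAA, any 2 bases and GAAA again, or a pair of TTTC in the same spacing for the other strand, with overlapping matches counted apart, lay in the promoters of 15 of the 31 (48.4%) and of 3.99% of the 27025 genes with a promoter. The GAS letters TTCNNNGAA, which read alike on both strands, lay in 9 of the 31 (29.0%) and in 9.55% of all promoters. The windows of 120 bases upstream of the start, written 5′ to 3′ on the strand of the gene with the ISRE matches in capitals, show how the matches are arranged in a ubiquitin-like modifier, a virus tether, an antiviral enzyme, an RNA-binding effector and a subunit of ISGF3 itself. They are Isg15 at chr4:156200819-156200938 (minus strand), Bst2 at chr8:71537503-71537622 (minus strand), Rsad2 at chr12:26456473-26456592 (minus strand), Ifit3 at chr19:34583353-34583472 (plus strand) and Stat2 at chr10:128270256-128270375 (plus strand).
Isg15: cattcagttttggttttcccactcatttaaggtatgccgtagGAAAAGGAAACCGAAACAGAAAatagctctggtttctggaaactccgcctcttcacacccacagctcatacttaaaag
Bst2: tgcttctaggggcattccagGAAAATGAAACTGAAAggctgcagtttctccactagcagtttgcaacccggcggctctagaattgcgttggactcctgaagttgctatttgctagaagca
Rsad2: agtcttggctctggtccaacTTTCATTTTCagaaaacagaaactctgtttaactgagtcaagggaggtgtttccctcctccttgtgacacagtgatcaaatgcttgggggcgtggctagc
Ifit3: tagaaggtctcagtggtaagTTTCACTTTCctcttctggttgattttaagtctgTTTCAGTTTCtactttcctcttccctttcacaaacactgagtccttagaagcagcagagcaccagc
Stat2: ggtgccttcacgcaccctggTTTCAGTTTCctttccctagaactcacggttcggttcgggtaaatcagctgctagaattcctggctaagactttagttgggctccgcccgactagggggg
Isg15 held 3 overlapping matches that began 78, 72 and 66 bases before the start. Bst2 held 2 overlapping matches at 130 and 124 bases, and Ifit3 held 2 separate ones at 156 and 122 bases. Rsad2 and Stat2 had 1 match each, at 120 and 222 bases. A match describes letters only and is not evidence that a factor was bound.

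Values are the deposited normalized fragments: paired-end fragments assigned to a locus, divided by 1 factor per library. The libraries held between 20809135 and 29098454 such fragments, so that 1 fragment was worth about 1 unit. In 189N3 mice, Dyrk1a stood at 4248, 3938 and 5877 against 2448, 2977 and 2126 in littermates, with no overlap. The library labelled Dp(16)1Yey/+ replicate 1 went against its label in part: over the 112 named loci of the triplicated region its mean log2 difference from littermates was -0.08, compared with 0.60, 0.45 and 0.37 in replicates 0, 2 and 3. The littermates of Dp(16)1Yey/+ formed 2 nearly alike pairs: replicates 0 and 1 differed by 1.65 times counting noise and replicates 2 and 3 by 2.004 times, compared with 31.5 to 36.5 times between the pairs. Hippocampal markers such as Prox1 (161 to 856) and Zbtb20 (1789 to 7734) were present in all 14 libraries.

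Per kilobase of exon, Ifitm2, which blocks the entry of viruses into cells, had the highest level among the 37 genes at 487 normalized fragments per kilobase over the 14 libraries. B2m, the light chain of MHC class I, followed at 463, Adar, an RNA-editing enzyme, at 199, and Ifit2, which binds viral RNA, at 104. Ifitm3 at 68.7, Stat2 at 51.8 and Isg15 at 40.4 ranked 5, 7 and 9 among the 37. Rsad2 ranked 17 at 10.8. Several other classical signs of an interferon response lay lower on the same scale: Usp18 stood at 7.34, Irf7 at 6.74, Oasl2 at 6.24, Mx2 at 2.72 and Mx1 at 1.76. Psmb9, an immunoproteasome subunit, was the lowest at 0.512. A mean under 10 normalized fragments over all libraries was found for 7 genes, namely Ifi35 (0 to 8.30), Dhx58 (3.26 to 16.8), Oas1a (0 to 9.10), Mx1 (0 to 17.2), Mx2 (1.18 to 28.7), Psmb9 (0 to 5.93) and Socs1 (0 to 7.25). A library at 0 allows a level of up to 2.45 to 3.53 normalized fragments, from 3 fragments and counting error alone. In bulk tissue, fewer cells of a type and less RNA per cell cannot be told apart.

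In Dp(16)1Yey/+ hippocampus most interferon-stimulated genes had lower mean levels than in littermates, but none passed correction over all loci. Of the 37 genes, 32 had a mean of at least 10 over these 8 libraries and were tested. Mx1 and Psmb8 reached it only through the littermates, where they were higher. The log2 fold change was negative for 29 and positive for 3, with a median of -0.38, whereas 45.1% of all 36024 loci tested were negative and their median was 0.03. An unadjusted p below 0.05 was found for 3 genes, all lower: Usp18, Mx1 and Tap1. Loci with such a p and a lower level made up 1.82% of all loci, and those with either direction 3.53%. With the Benjamini-Hochberg adjustment of limma over all loci, 0 of the 32 genes and 0 loci of the whole table passed 0.05, and the smallest adjusted p among the genes was 0.909. Without the filter on low values, 33 of 37 genes were lower and 4 had p below 0.05, Oas1a being added (of all loci, 46.7% were lower and 2.10% lower with such a p).

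**Figure D1:**
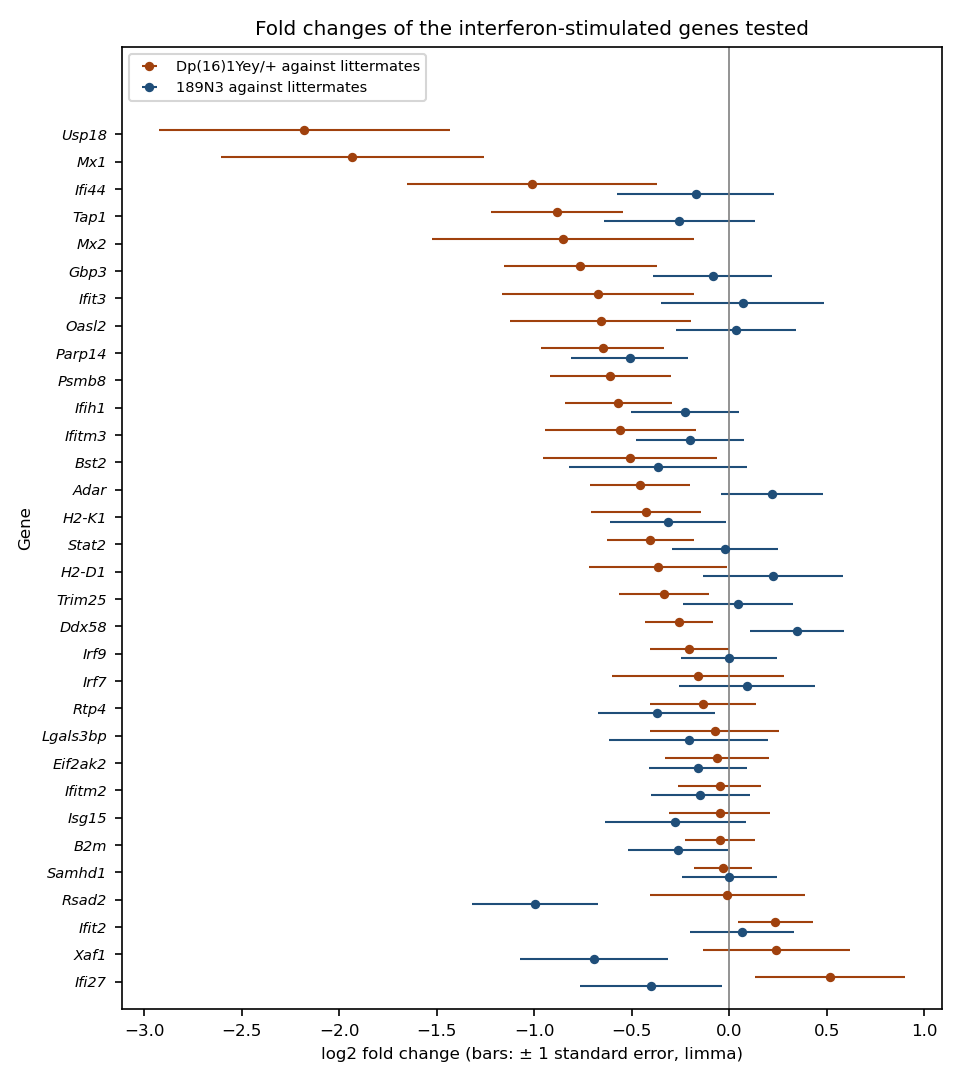
Log2 fold change (x axis, limma on log2 of the normalized fragments plus 1) of the 32 interferon-stimulated genes (y axis) tested in Dp(16)1Yey/+ against littermates (brown) and of the 28 tested in 189N3 against littermates (blue), with bars of 1 standard error. The brown points lie left of 0 for 29 of 32 genes, led by Usp18 at -2.18 and Mx1 at -1.93, and the blue points lie left of 0 for 19 of 28 genes, with a median of -0.17 and Rsad2 the lowest at -0.998.

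Usp18 removes ISG15 from proteins and blocks signalling from the type I receptor. Its levels (chr6:121245906-121270917) were 43.5, 1.18, 4.08 and 14.1 normalized fragments in Dp(16)1Yey/+ replicates 0 to 3 and 33.0, 29.7, 59.4 and 48.5 in littermates. In Dp(16)1Yey/+, 3 of the 4 libraries lay below every littermate, while replicate 0 lay within their range, so the groups overlapped. The means were 15.7 ± 19.3 and 42.6 ± 13.9 (SD, n = 4 each), a log2 fold change of -2.18 (SE 0.75, limma adjusted p = 0.909, exact two-sided permutation p = 0.0857). The other members of the ISG15 system differed less. Isg15, the modifier itself, had a log2 fold change of -0.05 (SE 0.26) and Trim25, a ligase that also activates the sensor RIG-I, one of -0.33 (SE 0.23).

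The Mx proteins are GTPases that trap incoming virus, and both genes lie in the triplicated segment. Mx1 (chr16:97447035-97462907) stood at 11.9, 0, 2.04 and 7.04 normalized fragments in Dp(16)1Yey/+ replicates 0 to 3 and at 13.4, 14.8, 15.1 and 17.2 in littermates. It was the one of the 37 interferon-stimulated genes whose groups did not overlap, with every Dp(16)1Yey/+ library below every littermate, and 0.736% of all loci were lower without overlap. Its log2 fold change was -1.93 (SE 0.68, limma adjusted p = 0.909), and the exact two-sided permutation p was 0.0286, the smallest that 4 against 4 allows. That p counts the nearly alike littermates as 4 samples, and with each pair as 1 sample the test could not go below 0.133. Mx1 passed the filter at a mean of 10 only through the littermates, where it was higher (mean 15.1, compared with 5.24 in Dp(16)1Yey/+). Without the filter its fold change was the same. The 93 loci tested in the triplicated region had a median of 0.42. The library at 0, the one labelled replicate 1, allows up to 3.53 units. Mx2 (chr16:97535308-97560900) stood at 28.7, 1.18, 8.16 and 11.1 against 8.24, 17.8, 25.9 and 15.2, and its log2 fold change was -0.85 (SE 0.67, exact permutation p = 0.40). Replicate 0 was the highest of the 8 libraries for Mx2 and the library labelled replicate 1 the lowest.

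**Figure D2:**
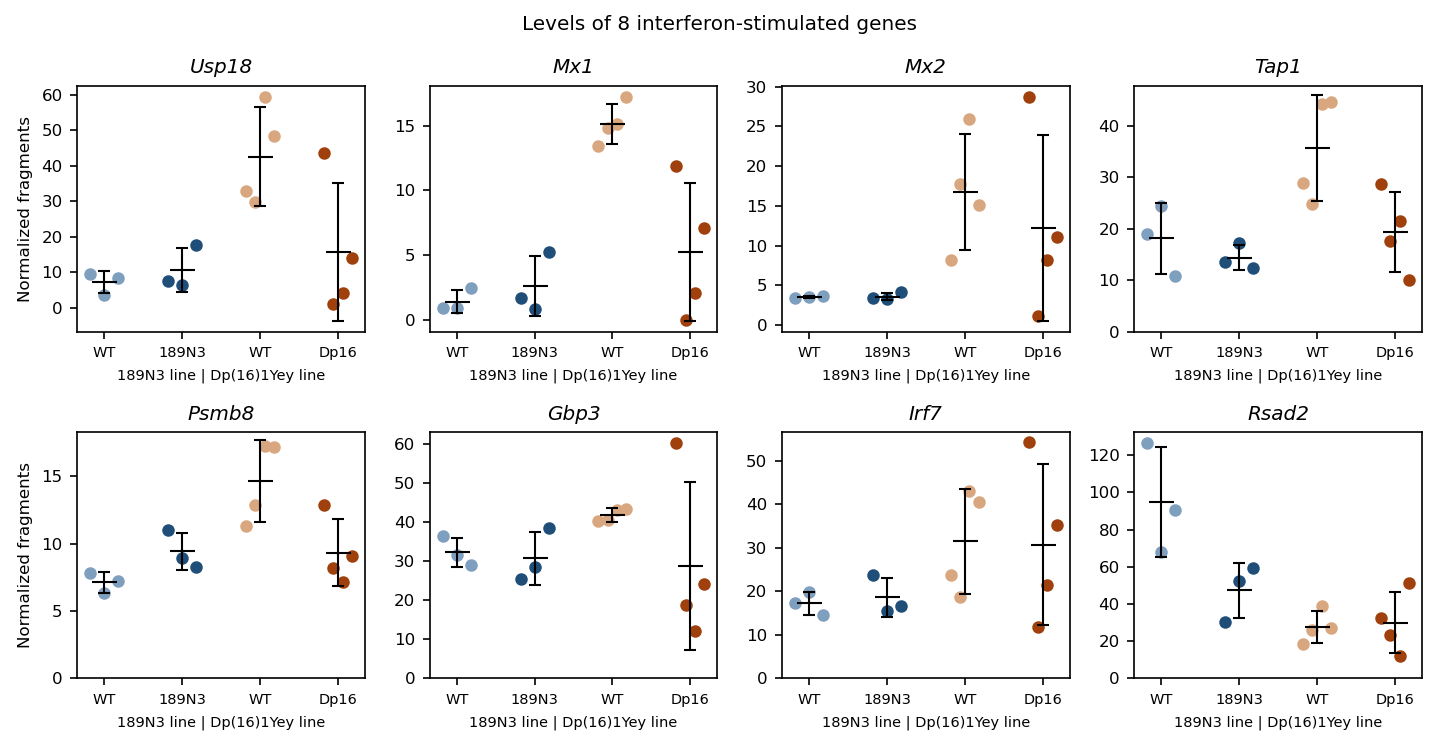
Normalized fragments (y axis, linear) of 8 interferon-stimulated genes in each library (points), with the group mean and SD (black), for the littermates (WT) and mutants of the 189N3 line and of the Dp(16)1Yey line (Dp16). For Mx1 all 4 Dp16 points (0 to 11.9) lie below the littermates (13.4 to 17.2), whereas for Usp18 and Gbp3 3 points lie below them and replicate 0 does not.

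Antigen presentation on MHC class I needs peptides cut by the immunoproteasome and pumped into the endoplasmic reticulum. Tap1, a subunit of the peptide pump (chr17:34187553-34197225), stood at 28.7, 17.6, 21.4 and 10.1 in Dp(16)1Yey/+ and 28.8, 24.7, 44.3 and 44.5 in littermates. Only replicate 0 reached the littermate range. The means were 19.5 ± 7.76 and 35.6 ± 10.3 (SD, n = 4 each), a log2 fold change of -0.88 (SE 0.34, limma adjusted p = 0.909, exact two-sided permutation p = 0.0571). Psmb8, the neighbouring immunoproteasome gene, stood at 12.9, 8.23, 7.14 and 9.06 against 11.3, 12.9, 17.3 and 17.2, a log2 fold change of -0.61 (SE 0.31, exact permutation p = 0.0571). It showed the same arrangement of libraries as Tap1, and like Mx1 it passed the filter only through the littermates (mean 14.7, compared with 9.32). All 5 tested genes of this role were negative, from -0.88 to -0.05 for B2m. H2-D1 and H2-K1, class I heavy chains at -0.36 and -0.43, are uncertain because class I genes share sequence, and the H2-D1 locus also carried the name H2-Q1, as the B2m locus carried BC002288.

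RNA sensors trigger interferon release on binding viral RNA. Ifih1, which encodes MDA5, stood at 76.1, 41.1, 37.8 and 33.2 in Dp(16)1Yey/+ and 58.7, 74.2, 81.0 and 55.6 in littermates, a log2 fold change of -0.57 (SE 0.27, exact permutation p = 0.114). Again 3 libraries lay below every littermate and replicate 0 lay among them. Ddx58, which encodes RIG-I, stood at 247, 163, 188 and 176 against 239, 234, 219 and 223, a log2 fold change of -0.26 (SE 0.17, exact permutation p = 0.143). Here too 3 libraries were below all littermates, and replicate 0 was above them. Of the effectors that act on RNA, 4 of 5 tested were negative, from Ifit3 at -0.67 to Eif2ak2, the kinase PKR, at -0.06, and Ifit2 was positive at 0.24. Ifit3 has a near-identical neighbouring copy, so its fragments could be split. Adar and Oasl2 had log2 fold changes of -0.46 (SE 0.26) and -0.66 (SE 0.46).

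Gbp3, a GTPase that attacks the vacuoles of intracellular microbes, stood at 60.3, 18.8, 12.2 and 24.2 in Dp(16)1Yey/+ and 40.2, 40.6, 43.2 and 43.5 in littermates. Replicate 0 lay above and the other 3 libraries below all littermates, which were close together. Its log2 fold change was -0.76 (SE 0.39, exact permutation p = 0.143). Parp14, an ADP-ribosyltransferase, stood at 76.1, 30.6, 24.5 and 31.2 against 58.7, 59.4, 57.2 and 56.6, a log2 fold change of -0.65 (SE 0.31, exact permutation p = 0.143), with the same split. All 8 tested antiviral effectors outside the RNA-directed ones were negative, and Samhd1, which depletes nucleotides, and Ifitm2 were at -0.03 and -0.05. Rsad2, which makes a chain-terminating nucleotide, stood at 32.6, 23.5, 12.2 and 51.3 against 18.5, 25.7, 38.9 and 27.3 in littermates, with mutants on both sides and a log2 fold change of -0.01 (SE 0.40).

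Stat2 and Irf9 are the transcription factors of the set that act in ISGF3, and Irf7 amplifies the production of interferon. Stat2 (chr10:128270559-128292849) stood at 423, 205, 293 and 248 in Dp(16)1Yey/+ and 333, 348, 408 and 409 in littermates, a log2 fold change of -0.40 (SE 0.22, exact permutation p = 0.171). Irf9 stood at 205, 125, 138 and 147 against 154, 153, 208 and 186, a log2 fold change of -0.20 (SE 0.20, exact permutation p = 0.257). In both genes the mutant replicates 1, 2 and 3 were the lowest libraries and replicate 0 was not. Irf7 stood at 54.4, 11.8, 21.4 and 35.2 against 23.7, 18.8, 43.2 and 40.4, a log2 fold change of -0.16 (SE 0.44, exact permutation p = 0.743), with replicate 0 the highest and the library labelled replicate 1 the lowest of the 8.

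Among the remaining induced genes, 4 of 6 tested were negative, from Ifi44 at -1.01 (SE 0.64) to Lgals3bp, a secreted glycoprotein, at -0.07. Ifi27, a mitochondrial protein, stood at 20.8, 17.6, 10.2 and 30.2 in Dp(16)1Yey/+ and 14.4, 6.93, 17.3 and 14.2 in littermates, a log2 fold change of 0.52 (SE 0.38). Here 3 mutant libraries lay above every littermate. Xaf1, which promotes cell death, stood at 16.8, 15.3, 7.14 and 13.1 against 6.18, 11.9, 9.71 and 16.2, a log2 fold change of 0.24 (SE 0.38). Rtp4, a chaperone of receptors, stood at 37.6, 22.3, 50.004 and 28.2 against 41.2, 40.6, 35.6 and 29.3, a log2 fold change of -0.14 (SE 0.27). For both the groups overlapped widely. Among the genes under the filter, Socs1, the inhibitor of JAK kinases, stood between 0 and 4.94 in these 8 libraries.

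The same libraries were high or low in gene after gene. Averaged over the 37 genes, the log2 difference from the littermate mean was 0.30 in Dp(16)1Yey/+ replicate 0, -0.79 in the library labelled replicate 1, -0.69 in replicate 2 and -0.52 in replicate 3. The number of genes below the littermate mean was 6, 28, 31 and 30 in that order. Of all 36045 loci with a mean of at least 10, 46.5%, 48.2%, 44.3% and 44.1% lay below it in replicates 0 to 3. Over these loci the average log2 difference lay between -0.04 and 0.06 in these libraries. The scaling by 1 factor per library draws that average toward 0, and the loci were not matched to these genes in level. The littermates split by their nearly alike pairs: replicates 0 and 1 averaged -0.18 and -0.16, with 27 genes below the mean in each, and replicates 2 and 3 averaged 0.17 and 0.16, with 8 and 10. Of the 36045 loci, 46.0%, 45.4%, 53.9% and 52.6% lay below it in littermate replicates 0 to 3. Without Mx1 and Mx2 the averages of the 35 other genes in Dp(16)1Yey/+ were 0.30, -0.64, -0.64 and -0.51.

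**Figure D3:**
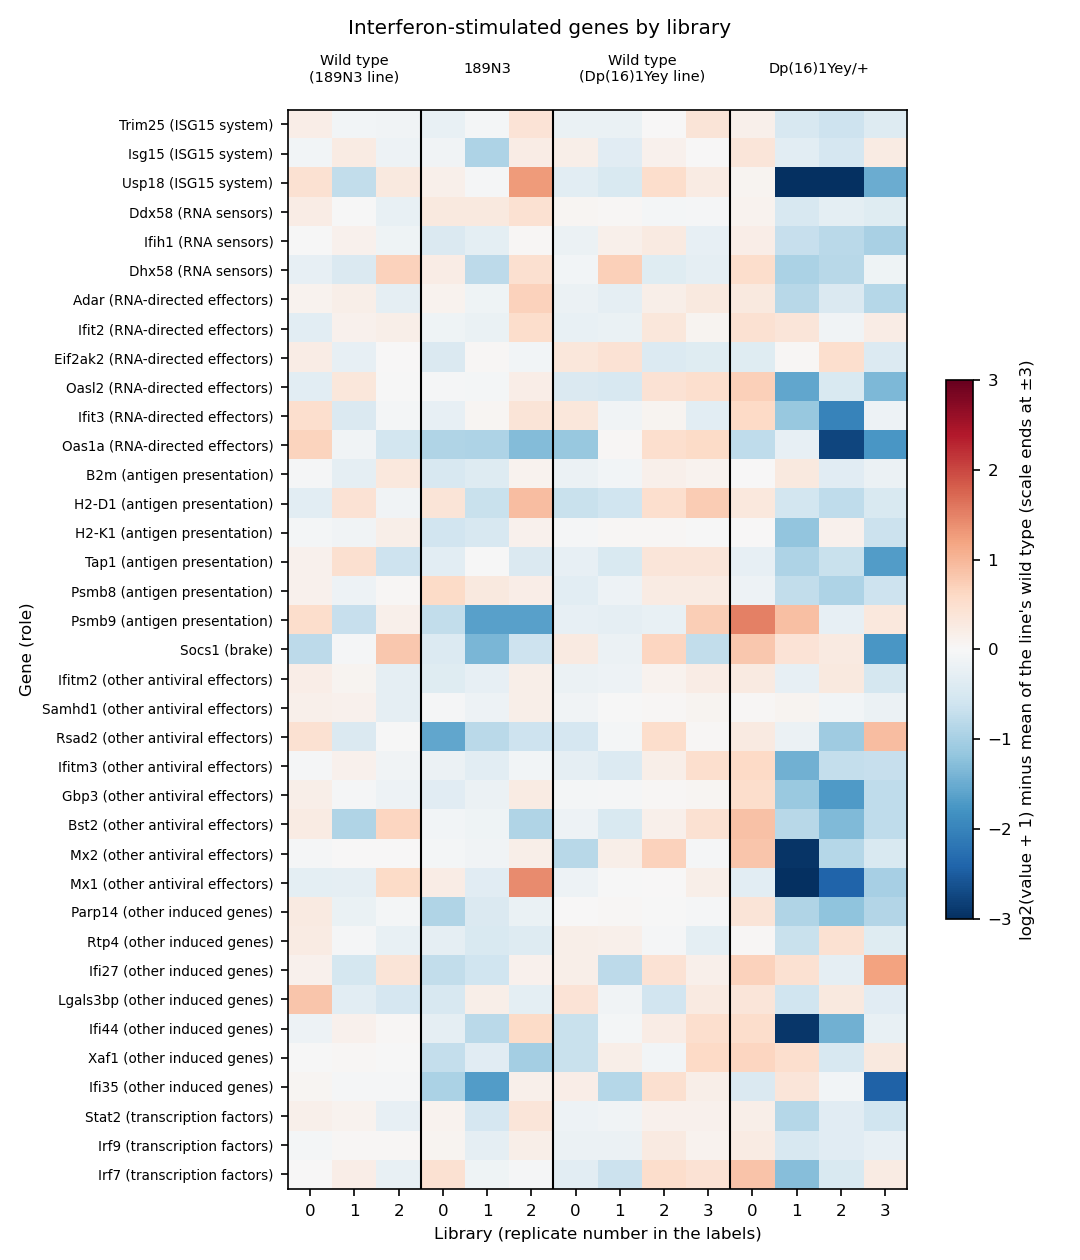
Log2 difference (colour, which saturates at 3 in either direction) of each of the 37 interferon-stimulated genes (y axis, with its role) from the mean of the wild-type littermates of its line, in each of the 14 libraries (x axis). Columns 1, 2 and 3 of Dp(16)1Yey/+ are mostly blue (28, 31 and 30 genes below the littermate mean) and column 0 is mostly red (6 below). Of all loci with a mean of at least 10, 48.2%, 44.3% and 44.1% lay below that mean in columns 1, 2 and 3, and 46.5% in column 0.

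Lists of cell type markers also differed between these libraries, most of them not in the directions of the interferon-stimulated genes. Only the endothelial list had the same sign as those genes in every Dp(16)1Yey/+ library. The mean log2 difference of 10 of 10 endothelial markers was 0.15, -0.43, -0.18 and -0.75 in Dp(16)1Yey/+ replicates 0 to 3, with 1, 8, 5 and 9 markers below the littermate mean, and their summed level was 1680 to 3203 units compared with 2791 to 2923 in littermates. That of 6 of 8 red cell markers was -0.50, 2.76, 0.81 and 1.52, with sums of 6152 to 48733 and 4586 to 17218. The library labelled replicate 1 also held keratin and other skin genes at 2.18 above littermates (6 of 6 with a row). Skin sums spanned 190 to 428 in Dp(16)1Yey/+ and 168 to 320 in littermates, and Krt5, Krt14 and Krt15 were at 0 in at least 1 of the 14 libraries. Connective tissue and meningeal markers (8 of 8) stood at -0.35, 1.09, 0.47 and 0.20, with sums of 1467 to 3439 compared with 1467 to 1831, and choroid plexus markers (6 of 6) at -0.10, 1.13, 0.57 and -1.08, with sums of 212 to 2640 compared with 185 to 1904 and Kcne2 at 0 in at least 1 of the 14 libraries. Microglial markers (11 of 12) stood at 0.21, 0.26, -0.28 and -0.29, with sums of 1114 to 1592 and 1328 to 1493. Neuronal and hippocampal markers (12 of 12) stood at 0.21, -0.42, 0.06 and -0.37, with sums of 89643 to 127941 and 88812 to 113898. The part of these cell types in the lower levels of interferon-stimulated genes was not tested. Of the lymphoid markers, Cd8a stood at 0 to 4.70, Cd4 at 3.63 to 13.9 and Ptprc, which microglia also express, at 27.7 to 87.2 over the 14 libraries.

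**Figure D4:**
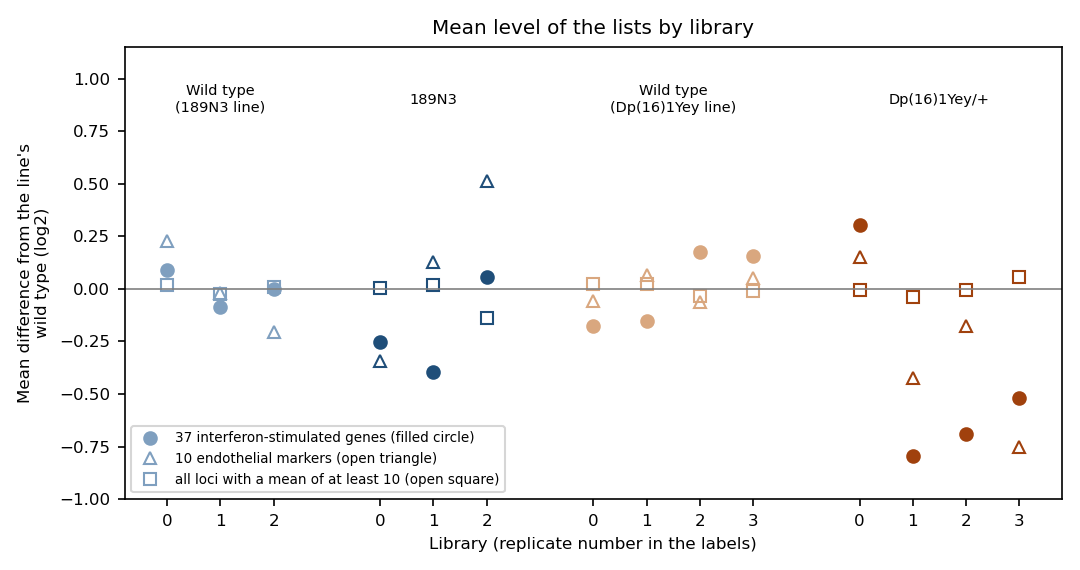
Mean log2 difference (y axis) from the wild-type littermates of the line, in each library (x axis), for the 37 interferon-stimulated genes (filled circles), 10 endothelial markers (open triangles) and all loci with a mean of at least 10 (open squares). The circles of Dp(16)1Yey/+ lie at 0.30, -0.79, -0.69 and -0.52, the squares stay within 0.14 of 0 in all 14 libraries, and the triangles of Dp(16)1Yey/+ lie at 0.15, -0.43, -0.18 and -0.75. In 189N3 the circles lie at -0.25, -0.39 and 0.05 and the triangles at -0.34, 0.13 and 0.51. The other marker lists, which differed in sign from the circles in some of the Dp(16)1Yey/+ libraries, are not drawn.

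The count of genes with p below 0.05 turned on single libraries. Without Dp(16)1Yey/+ replicate 0 it was 15 of 31, all lower, while 44.7% of all loci were lower and 7.58% lower with such a p, the median was -0.57 and the smallest limma adjusted p was 0.374. These 15 were Usp18, Parp14, Gbp3, Adar, Ifih1, Stat2, Tap1, Ifitm3, Oasl2, Bst2, Ifi44, Ifit3, Ddx58, Mx2 and Psmb8. Among them Usp18, Bst2, Ifi44, Ifit3, Mx2 and Psmb8 had a mean under 10 in the remaining Dp(16)1Yey/+ libraries. They passed the filter only through the littermates, where they were higher. Mx1 was not tested there because its mean fell under 10. Without the library labelled replicate 1 the count was 3 of 33, again Usp18 (-1.48), Mx1 (-1.24) and Tap1 (-0.87), with a median of -0.18 and 24 genes lower. In that fit 0.83% of all loci were lower with such a p, and the median over all loci was 0.03. Without replicate 2 the median was -0.25. Without littermate replicate 2 or 3 the count was 1, since Tap1 (-0.76 in both) was no longer among them and Mx1 fell under the filter. Of all loci, 1.35% and 1.21% were lower with such a p in these fits. With each nearly alike littermate pair averaged to 1 sample the count was 1 of 31, Usp18 (-2.18), with Mx1 again under the filter. There 0.34% of all loci were lower with such a p, and 4 against 2 cannot go below 0.133 in an exact permutation test.

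In 189N3 mice, which have the extra Dyrk1a without the rest of the segment, 28 of the 37 genes had a mean of at least 10 over the 6 libraries. The log2 fold change was negative for 19 and positive for 9, with a median of -0.17, and 56.2% of all 35899 loci tested were negative, with a median of -0.04. One gene, Rsad2, had an unadjusted p below 0.05, and 1.87% of all loci had one (1.05% lower). With the Benjamini-Hochberg adjustment of limma, 0 genes passed 0.05, and likewise 0 of 28 by edgeR or DESeq2, which each gave 1 gene with unadjusted p below 0.05. By these tools 1.06% and 0.65% of all loci were lower with such a p. Of the tested genes 3 were lower without overlap, Rsad2, Xaf1 and Rtp4, and 1 was higher, Ddx58, compared with 2.99% and 1.99% of all loci. With 3 against 3 an exact permutation test cannot go below 0.10.

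Rsad2 (chr12:26442746-26456452) encodes viperin, the enzyme whose promoter is printed above. Its levels were 30.5, 52.2 and 59.2 normalized fragments in 189N3 replicates 0 to 2 and 126, 67.7 and 90.6 in littermates. All 3 mutant libraries lay below all littermates. The means were 47.3 ± 14.97 and 94.9 ± 29.6 (SD, n = 3 each), a log2 fold change of -0.998 (SE 0.32, limma adjusted p = 1.00, exact two-sided permutation p = 0.10). Without 189N3 replicate 0 or littermate replicate 0 it was -0.72 or -0.77 and no longer had an unadjusted p below 0.05, which left 0 genes. Without 189N3 replicate 1 or 2 there were 2 (1 lower and 1 higher) or 3 such genes. In these fits 3.60% and 1.81% of all loci were lower with such a p. The median of the tested genes was -0.08 without 189N3 replicate 0, -0.07 without replicate 1 and -0.21 without replicate 2. Over all loci it was -0.05, -0.05 and 0.01 in these fits. Without 1 littermate the median of the tested genes was -0.12 to -0.15. Replicate 2 differed from 189N3 replicates 0 and 1 by 59.6 and 110 times counting noise, compared with 16.5 times between those.

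Xaf1 stood at 9.31, 12.2 and 7.26 in 189N3 and 15.6, 16.2 and 15.7 in littermates, a log2 fold change of -0.69 (SE 0.38, exact permutation p = 0.10), and it passed the filter only through the littermates (mean 15.8). Rtp4 stood at 27.9, 24.5 and 25.9 against 40.7, 33.4 and 29.0, a log2 fold change of -0.37 (SE 0.30, exact permutation p = 0.10). In both genes the mutant libraries were the 3 lowest of the 6, the smallest p that 3 against 3 allows. Parp14 stood at 27.1, 37.5 and 44.6 against 61.5, 44.2 and 49.5, with 1 mutant library among the littermates and a log2 fold change of -0.51 (SE 0.30, exact permutation p = 0.20). Ifi27 stood at 16.1, 17.9 and 30.1 against 30.3, 19.0 and 36.3, a log2 fold change of -0.40 (SE 0.36, exact permutation p = 0.20). Ddx58 went the other way, at 224, 224 and 249 against 213, 180 and 157, a log2 fold change of 0.35 (SE 0.24, exact permutation p = 0.10), with every mutant library above every littermate.

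Usp18, at 7.61, 6.53 and 17.6 in 189N3 and 9.53, 3.61 and 8.46 in littermates, fell under the filter in this comparison. Mx1 (1.69, 0.816 and 5.19 against 0.866, 0.902 and 2.42) and Mx2 (3.38, 3.26 and 4.15 against 3.47, 3.61 and 3.63) did so too, and all 3 genes overlapped between the groups. Stat2 stood at 288, 188 and 345 against 297, 291 and 226, and Irf9 at 146, 114 and 155 against 133, 140 and 140. The log2 fold changes of Stat2, Irf9 and Irf7 were -0.02, 0.00 and 0.09, and their directions turned with the scaling or with single libraries. The mean log2 difference of the 37 genes was -0.25, -0.39 and 0.05 in 189N3 replicates 0 to 2, with 27, 32 and 13 genes below the littermate mean. Of all 36045 loci with a mean of at least 10, 48.8%, 47.1% and 54.0% lay below it in these libraries. Endothelial markers stood at -0.34, 0.13 and 0.51, with sums of 2475 to 4173 compared with 2449 to 3114, and red cell markers at -1.60, -1.30 and -1.03, with sums of 13935 to 22232 compared with 33976 to 54440. Microglial markers stood at -0.34, -0.21 and 0.17, with sums of 1521 to 2201 compared with 1638 to 1946. In these libraries the microglial list had the sign of the interferon-stimulated genes throughout, and the endothelial list did not. Skin markers stood at -1.56, -2.18 and -0.90, with sums of 205 to 344 compared with 327 to 2024, and connective tissue and meningeal markers at -1.13, -0.38 and -0.35, with sums of 2041 to 3807 compared with 3272 to 6752. Choroid plexus markers stood at -1.68, 1.81 and 0.40, with sums of 328 to 6159 compared with 336 to 14559, and neuronal and hippocampal markers at 0.11, -0.11 and 0.40. Their part in these levels was not tested.

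Littermates of the 2 lines also stood at different levels in some of these genes. Usp18 was at 3.61 to 9.53 in littermates of 189N3 and 29.7 to 59.4 in those of Dp(16)1Yey/+, Mx1 at 0.866 to 2.42 and 13.4 to 17.2, and Rsad2 at 67.7 to 126 and 18.5 to 38.9. Line, litter and processing cannot be told apart in this comparison, and it was not tested. Each model was therefore read against its own littermates.

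The effect in Dp(16)1Yey/+ minus that in 189N3, tested as an interaction over all 14 libraries for the 30 genes with a mean of at least 10, was negative for 20 and positive for 10, with a median of -0.23 (0.08 over all 36045 loci, of which 42.8% were negative). An unadjusted p below 0.05 was found for 3 genes, all lower, and 2.66% of all loci had one (1.12% lower). Usp18 differed by -2.64 (SE 1.04), Psmb8 by -0.97 (SE 0.43) and Ddx58 by -0.60 (SE 0.25), and the smallest limma adjusted p was 0.922. Psmb8 stood at 10.998, 8.97 and 8.30 in 189N3 and 7.80, 6.32 and 7.25 in littermates, so that it was higher without overlap in 189N3 and mostly lower in Dp(16)1Yey/+, and Ddx58 had the same arrangement. Psmb8 was under the filter in 189N3 and entered this test only through the littermates of Dp(16)1Yey/+ (means of 9.42 in 189N3 and 7.12 in its littermates, compared with 14.7 there). Xaf1 had the fourth smallest p, with a difference of 0.94 (SE 0.51). The count of 3 became 6 without Dp(16)1Yey/+ replicate 0, 1 without the library labelled replicate 1, 5 without replicate 2 (2 lower and 3 higher), and 0 and 1 without 189N3 littermate replicates 1 and 2. Loci lower with such a p made up 5.67%, 0.51%, 1.58%, 1.36% and 0.37% of all loci in that order. With 0 genes past the adjusted threshold, the 2 models were not separated for any single interferon-stimulated gene.

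Upstream of these genes, 32 of 33 listed interferon pathway genes had a row (Ifng had none), and 29 were tested in Dp(16)1Yey/+. At unadjusted p below 0.05, 2 were higher and 1 lower (1.71% and 1.82% of all loci), and the same 3 were the genes without overlap (1.72% of loci higher and 0.736% lower). Ifngr2, a chain of the type II receptor in the triplicated segment, stood at 2524, 1916, 1655 and 2077 in Dp(16)1Yey/+ and 996, 997, 1449 and 1537 in littermates, a log2 fold change of 0.73 (SE 0.20, limma adjusted p = 0.909). Ifnar2, also in the segment, stood at 665, 347, 484 and 421 against 304, 303, 340 and 320, a log2 fold change of 0.56 (SE 0.20, limma adjusted p = 0.909). Every mutant library exceeded every littermate for both receptor genes, the library labelled replicate 1 included. Ifnar1 and Il10rb, the other receptor genes of the segment, had log2 fold changes of 0.39 (SE 0.20) and 0.27 (SE 0.23).

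Myd88, the adaptor of most Toll-like receptors, stood at 32.6, 28.2, 29.6 and 21.1 in Dp(16)1Yey/+ and 39.1, 41.6, 38.9 and 40.4 in littermates, a log2 fold change of -0.52 (SE 0.22, limma adjusted p = 0.909). It was lower without overlap in all 4 mutant libraries, replicate 0 among them. Jak1 had a log2 fold change of -0.25 (SE 0.21), and Ifngr1, which is not in the segment, one of -0.11 (SE 0.20). In 189N3 mice 0 of the 28 pathway genes tested had an unadjusted p below 0.05, and 0 an adjusted one, by limma. Traf3, an adaptor of the sensor pathways, differed between the models by -0.73 (SE 0.32, limma adjusted p = 0.922). Ifnb1, the interferon beta gene, was at 0 or about 1 normalized fragment in every library, so that its transcripts were not detectable beyond counting error at this depth.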

How the data were processed

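RNA-seq of 14 libraries was read from the deposited gene table. The authors prepared stranded libraries with a total RNA kit, although the labels call the molecule polyA RNA, and their notes name Bowtie, TopHat and Cufflinks and the build mm10. Versions are not given in the sources used here. The deposited values are a signal per locus of the assembly: whole fragments scaled by a single factor for each library. Loci were named through the deposited transcript map, by matching the 59796 rows to sums of isoform rows in all columns, and per symbol the row with the highest mean was kept. The gene members, the pathway and marker lists and the tests were chosen with earlier results of these data known. Groups were taken from the labels.

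Main tests used limma 3.58.1 in R 4.3.3 with a trend, on log2(value + 1), separately for each line and with an interaction for the difference, after a filter at a mean of 10 normalized fragments over the samples compared, and with Benjamini-Hochberg adjustment at 0.05. A fold change on this scale understates the change of low genes. Genes given with all values were the 8, 6 and 4 with the smallest p in the 3 comparisons, Mx1, Mx2, Stat2, Irf9 and Irf7, and other members were named as examples after their values were seen. For single genes an exact permutation test, two-sided throughout, was run as well (SciPy 1.17.1). In some columns of the Dp(16)1Yey line 1 fragment was worth almost exactly 1 unit, such as 1.006 in Dp(16)1Yey/+ replicate 3. The check for whole fragments did not accept such columns, although their values were near whole multiples. For that reason edgeR 4.0.16 and DESeq2 1.42.0 were run on the 189N3 line only, and the Dp(16)1Yey/+ comparison was not run in them. Depths and the scaling alternatives used fragments from all 14 columns. Exon lengths and coordinates came from GENCODE for mm10. Depth was 20809135 to 29098454 fragments per library, and limits for 0 cover counting error only. The scripts were tested on simulated data. Some genes of the pathway and marker lists are not reported here by name.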

Additional observations from a re-analysis of the deposited data

Results flagged for a closer look

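In 3 cases a library stood apart from the others of its group of 4 by Dixon's criterion, out of 74 groups of 4 examined, and chance marks about 1 in 20 groups. Bst2, the virus tether, stood at 36.6 normalized fragments in Dp(16)1Yey/+ replicate 0 and 7.14 to 11.1 in the other 3. Parp14 stood at 76.1 in the same library and 24.5 to 31.2 in the others. Psmb9 stood at 3.03 in littermate replicate 3 of that line and 0.990 to 1.08 in the others, which is a difference of about 2 fragments.

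For 3 genes the interaction test of limma gave a different effect in the models at an unadjusted p below 0.05: Usp18 by -2.64, Psmb8 by -0.97 and Ddx58 by -0.60 on the log2 scale, each with a limma adjusted p of 0.922. Such a p was found for 2.66% of all loci (1.12% lower). Usp18 was within the littermate range in Dp(16)1Yey/+ replicate 0.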

How the results depend on the processing

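No interferon-stimulated gene passed an adjusted p of 0.05 in limma, edgeR or DESeq2 under any alternative run, with edgeR and DESeq2 run for 189N3 only. The number with unadjusted p below 0.05 moved by more than 1.5 times under several. In 189N3 it was 2 without a filter, 0 with a mean of at least 100, 2 without a trend and 0 to 3 when 1 library was left out. Loci lower with such a p made up 1.59%, 0.30%, 1.69% and 0.48% to 3.60% of all loci in that order. In Dp(16)1Yey/+ the number was 0 with a mean of at least 100, 7 in one fit of all 4 groups and 1 with nearly alike littermate pairs averaged. It was 1 to 15 when 1 library was left out, and 9 with pairs averaged and replicate 0 left out, an alternative added after the data were seen. The shares of all loci lower with such a p were 1.16%, 2.38%, 0.34%, 0.83% to 7.58% and 3.36% in that order. For the difference between the models the number was 5 without a filter or with a mean of at least 1 (4 lower and 1 higher in both). It was 1 with a mean of at least 100, 1 with pairs averaged, 5 in the added alternative and 0 to 6 when 1 library was left out. Here the shares lower with such a p were 1.43%, 1.35%, 0.998%, 0.40%, 3.54% and 0.37% to 5.67% of all loci in that order.

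The direction turned only for fold changes near 0 among the genes followed. In Dp(16)1Yey/+ Rsad2 was 0.017 with a pseudocount of 10. In 189N3 Stat2 was 0.0099 with median-ratio factors and 0.044 in DESeq2, and Irf9 was 0.028 with median-ratio factors, 0.013 with TMM factors, 0.028 with quantile normalization and 0.038 in DESeq2. With 1 library left out, log2 fold changes ranged in 189N3 over Gbp3 -0.25 to 0.040, Irf7 -0.086 to 0.20, Irf9 -0.088 to 0.13 and Stat2 -0.21 to 0.22, and in Dp(16)1Yey/+ over Irf7 -0.50 to 0.21, Rsad2 -0.32 to 0.34 and Rtp4 -0.33 to 0.046. The cause of these shifts was not tested.

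Replicate numbers did not pair the samples: the deviations of same-numbered libraries correlated at -0.03, -0.32 and -0.15 in the 189N3 line and -0.41, -0.07, -0.45 and -0.16 in the other. Libraries with different numbers did share deviations. Dp(16)1Yey/+ replicate 0 correlated at 0.41 and 0.46 with littermate replicates 2 and 3, and at -0.47 with replicate 1. Dp(16)1Yey/+ replicate 2 correlated at 0.46 and 0.45 with littermate replicates 0 and 1. Whether such libraries shared a litter or a batch is not in the labels and was not tested. With the replicate block, the number of genes with p below 0.05 was 1 in 189N3, 3 in Dp(16)1Yey/+ and 1 for the difference between the models, and 72 loci of the whole table passed the adjusted threshold in 189N3. Counting error limits genes near 1 to 10 fragments, and most interferon-stimulated genes hold under 100.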
